A study of Sus scrofa with 6 samples.

Results

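The genes described here encode the machinery of autophagy and the membrane proteins, hydrolases and transcription factors of the lysosome. They were chosen by name from a list of 53 gene symbols, with earlier results of these data known. Of the 14579 mRNAs in the expression table, 45 carried one of these symbols. The 45 genes comprised 27 of the autophagy machinery, 12 lysosomal enzymes (the saposin precursor PSAP among them), 3 lysosomal membrane proteins and 3 transcription factors of the MiT/TFE family. The other 8 symbols, among them ATG101, ATG4B, ATG12, BNIP3, CTSD, CTSK and GLA, had no matched identifier and were not analysed here.

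RNA-seq was performed on lung tissue of 6 female piglets bred from Tibetan fathers and Meishan mothers. The fetal group (prenatal in the labels) held 3 piglets taken from 3 sows on the last day before birth, and the neonatal group held 3 piglets from 3 other sows, taken 2 days after birth. Each library came from 1 piglet, and no experimental treatment was described. The paper stated that the parents were kept alike until caesarean and parturition. A difference in delivery between the groups cannot be told apart from age. All pigs were killed by exsanguination after an intramuscular injection of ketamine. Because the piglets of a group came from separate sows and the groups shared no sow, litter and individual both contributed to the spread within a group.

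Autophagy delivers cytoplasmic material to lysosomes. A starvation-sensitive kinase complex starts the process, a lipid kinase complex marks the site, and ubiquitin-like proteins are attached to the growing membrane, where they hold cargo receptors. The closed autophagosome then fuses with lysosomes, in which cathepsins, glycosidases and lipases degrade its content. In the lung, lysosomes are prominent in alveolar macrophages, and alveolar type II cells store surfactant in lamellar bodies, which are organelles related to lysosomes. Autophagy is also known to sustain newborn mammals between the loss of the placental supply and regular feeding.

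Expression was given as FPKM (fragments counted relative to transcript length and to the mapped reads of the library), which corrects for length and so allows levels of different genes to be compared. The tables hold no read counts, so the depth behind a value is unknown from them and the spread over 3 lungs is the only error. Differences are neonatal minus fetal values of log2(FPKM + 1), written log2(FC), and were fitted in limma over all mRNAs. Adding 1 makes the differences of genes with low FPKM too small. The threshold was an adjusted p of 0.05. For a single gene, an exact permutation test of 3 lungs against 3 cannot go below a two-sided p of 0.1. The tissue label was checked on the surfactant genes SFTPC and SFTPB, which had at least 3171 and 621 FPKM in every library. In 3 libraries (Fetal3, Neonatal2 and Neonatal3) between 27.2% and 31.3% of the assembled lncRNAs were listed at 0, against 9.29% to 13.2% in the other 3, and results are given also with a term for this split.

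The enzymes of the lysosome and the machinery of autophagy showed different values after birth. All 12 lysosomal enzymes had a higher mean in the neonatal group, and 4 of them (CTSL, CTSZ, CTSC and GAA) rose past the threshold. The identity of the gene named CTSL is uncertain. With its paralog CTSV in its place, 11 of 12 had a log2(FC) above 0 and 3 were past the threshold. Of the 27 machinery genes, 10 had a higher and 17 a lower mean, and 1 of them, ATG3, rose past the threshold. Over all mRNAs, 6.87% were past the threshold, 5.41% higher and 1.45% lower in the neonatal group. In total 6 of the 45 genes rose past the threshold, the sixth being the transcription factor TFE3, and none fell past it. An unadjusted p under 0.05 in limma held for 14 of the 45 and for 24.2% of all mRNAs. Among the 14 were 7 of the 12 enzymes and 5 of the 27 machinery genes. The groups did not overlap in 20 of the 45 genes, 13 with the neonatal lungs above and 7 below, against 30.5% of all mRNAs. Among the enzymes 8 lay above and 0 below, and among the machinery 3 lay above and 7 below. Over all mRNAs, 20.9% lay above and 9.64% below. The median log2(FC) was 0.93 over the enzymes and -0.18 over the machinery, beside 0.13 over all mRNAs.

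The direction of the smaller differences depended on how libraries were scaled. Median-of-ratios scaling moved the median of all mRNAs from 0.13 to -0.01, and quantile normalization moved it to -0.04. Relative to the median of all mRNAs, the enzymes stood at 0.80 as deposited, 0.77 with median-of-ratios scaling and 0.75 after quantile normalization. The machinery stood at -0.30, -0.33 and -0.29. Under either scaling 20 machinery genes had a lower mean. Among the enzymes NEU1 had a lower mean under both scalings, as well as without Fetal3 or Neonatal2, and PSAP did so after quantile normalization. The 6 genes past the threshold kept their call under both scalings.

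**Figure D1:**
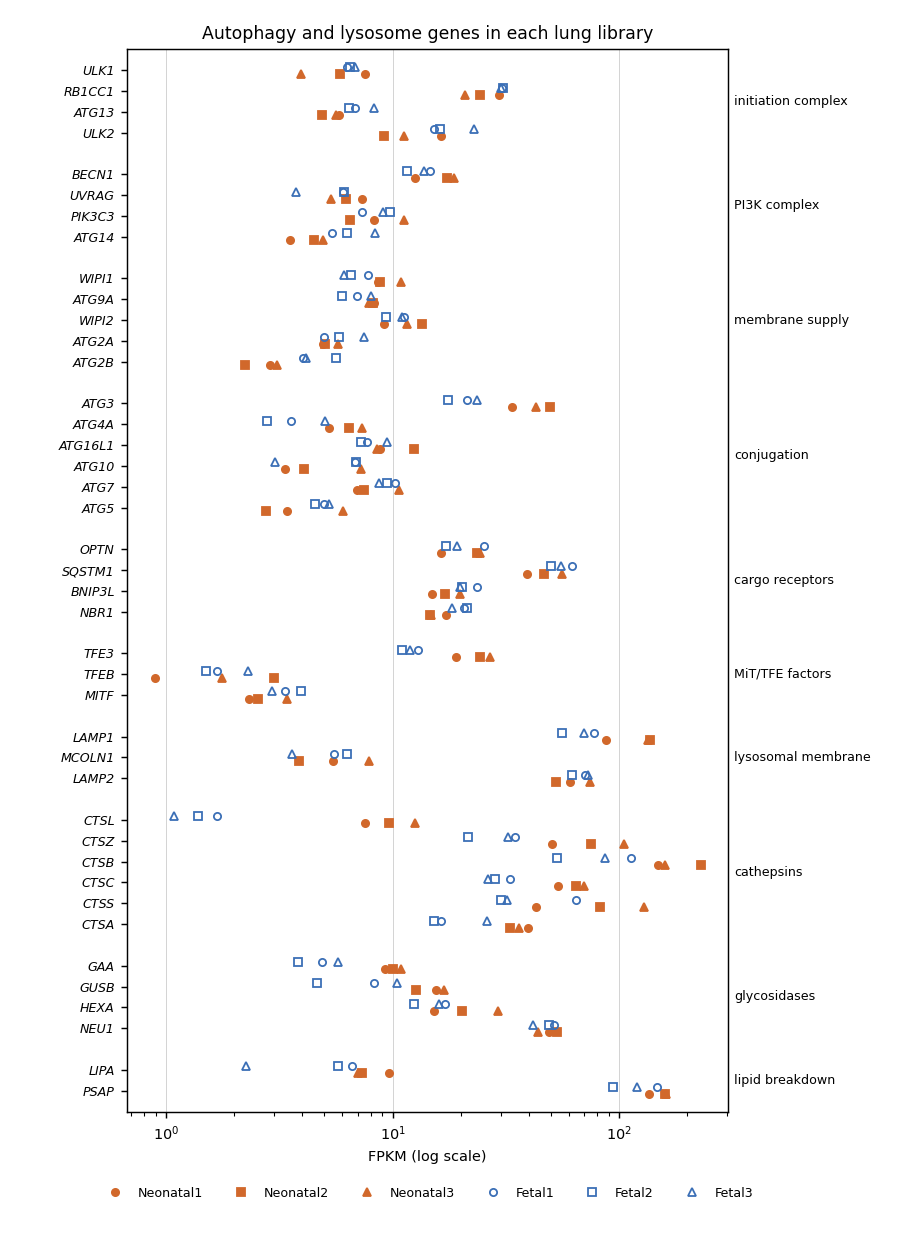
FPKM of 41 of the 45 genes (log scale) in each of the 6 lungs, with open blue symbols for fetal and filled orange symbols for neonatal libraries, in blocks by role. In the cathepsin block the neonatal symbols of 5 of 6 genes lie to the right of all fetal symbols, whereas the 2 groups are mixed for most of the autophagy machinery.

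Levels per length spanned a wide range. Averaged over the 6 lungs, PSAP stood highest at 136 FPKM, followed by CTSB at 131 FPKM and the membrane protein LAMP1 at 93.6 FPKM. The machinery was lower, with a median of 8.92 FPKM over its genes against 36.8 FPKM over the enzymes, and its most abundant gene was the cargo receptor SQSTM1 at 51.5 FPKM. TFEB was the lowest of all at 1.86 FPKM. None of the 45 genes was listed at 0 in any library.

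Cathepsins are the proteases of the lysosome. All 6 measured members had a higher neonatal mean, and for CTSA, CTSB, CTSC, CTSL and CTSZ the lowest neonatal value exceeded the highest fetal one, which was the case for 20.9% of all mRNAs.

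CTSL, named as cathepsin L, an endopeptidase, stood at 1.67, 1.38 and 1.08 FPKM in the fetal lungs and at 7.55, 9.62 and 12.5 FPKM in the neonatal lungs. The groups were far apart, and the difference was the highest of the 45 genes (log2(FC) 2.18, standard error 0.23, adjusted p = 0.00435). With each library left out in turn, its adjusted p stayed at or below 0.0431. The identity of this gene is uncertain, because a paralog named CTSV carries CTSL among its synonyms in RefSeq, and the 2 genes can share reads. CTSV, which was looked at after these values had been seen, was far more abundant, at 116, 88.5 and 130 FPKM in the fetal and 55.5, 66.3 and 86.0 FPKM in the neonatal lungs. All neonatal values of CTSV lay below its fetal values, with a log2(FC) of -0.69 that did not pass the threshold (adjusted p = 0.148). The summed FPKM of CTSL and CTSV was 113 ± 21.2 in the fetal and 79.2 ± 18.0 in the neonatal group (SD, n = 3 each), with overlapping groups. With CTSV in place of CTSL, 11 of 12 enzymes had a log2(FC) above 0, 3 were past the threshold and the median was 0.91.

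CTSC, the dipeptidyl peptidase that activates serine proteases of leukocyte granules, stood at 32.8, 28.4 and 26.3 FPKM before birth and at 53.7, 64.2 and 70.1 FPKM after it. All neonatal lungs lay above all fetal lungs (log2(FC) 1.07, standard error 0.19, adjusted p = 0.0203). CTSZ, a carboxypeptidase, gave 34.8, 21.6 and 32.3 FPKM in the fetal and 50.6, 75.2 and 105 FPKM in the neonatal group. The neonatal lungs were widely spread but did not meet the fetal ones (log2(FC) 1.32, standard error 0.31, adjusted p = 0.0489). Leaving out any of Fetal1, Fetal2, Fetal3, Neonatal2 or Neonatal3 raised the adjusted p of CTSC to between 0.0584 and 0.0933 and that of CTSZ to between 0.108 and 0.183.

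The other cathepsins did not pass. CTSB, an abundant cysteine protease, gave 112, 52.9 and 86.8 FPKM in the fetal and 148, 229 and 159 FPKM in the neonatal lungs. The groups were separate, yet the fetal lungs alone differed 2.12-fold among themselves, and the log2(FC) of 1.12 had an interval from 0.36 to 1.88 (95%, adjusted p = 0.0902). CTSA, a carboxypeptidase that also stabilizes lysosomal glycosidases, stood at 16.4, 15.2 and 26.2 FPKM and then at 39.7, 32.8 and 36.1 FPKM (log2(FC) 0.91, adjusted p = 0.0648). Fetal3 was the high fetal library, and without it the log2(FC) of CTSA was 1.14 and passed (adjusted p = 0.0419). CTSS, a protease of antigen-presenting cells, had 64.7, 30.2 and 31.99 FPKM in the fetal and 42.9, 81.9 and 129 FPKM in the neonatal lungs. Here Fetal1 lay above Neonatal1, and the log2(FC) of 0.94 had an interval from -0.11 to 1.98.

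**Figure D2:**
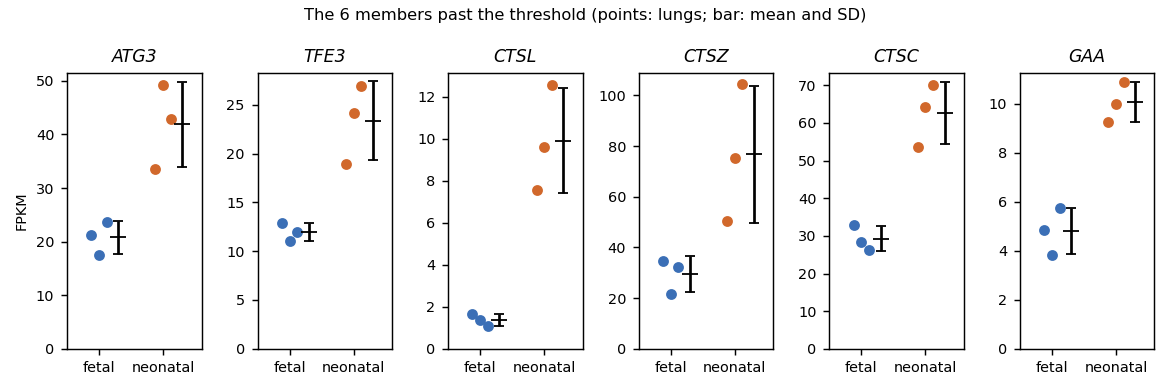
FPKM of the 6 genes past the threshold, on linear axes from 0, with 1 point per lung and the mean and SD of each group (n = 3). In every panel the 3 neonatal points lie above the 3 fetal points, and Neonatal1 is the lowest neonatal value.

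Among the glycosidases, which remove sugars from glycogen, glycolipids and glycoproteins, 1 of 4 rose past the threshold. GAA, the acid glucosidase that breaks down glycogen, was measured at 4.86, 3.83 and 5.73 FPKM before and at 9.27, 10.0 and 10.9 FPKM after birth. The 3 neonatal lungs were close together and all above the fetal lungs (log2(FC) 0.94, standard error 0.19, adjusted p = 0.0329). This call did not survive the loss of a library, with adjusted p between 0.0550 and 0.126 over the 6 fits with 1 library left out. GUSB, the beta-glucuronidase, had 8.31, 4.66 and 10.4 FPKM in the fetal and 15.5, 12.7 and 16.9 FPKM in the neonatal lungs, again without overlap (log2(FC) 0.92, adjusted p = 0.101). HEXA, a subunit of beta-hexosaminidase, stood at 15.2 ± 2.47 and 21.6 ± 7.10 FPKM (SD, n = 3 each) with overlapping groups. NEU1, the lysosomal sialidase, was the most abundant glycosidase and differed least, at 51.3, 48.8 and 41.6 FPKM against 49.2, 52.9 and 43.8 FPKM. Its log2(FC) of 0.04 had an interval from -0.38 to 0.46.

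The remaining enzymes handle lipids. LIPA, the acid lipase that hydrolyses cholesteryl esters and triglycerides, gave 6.60, 5.75 and 2.26 FPKM in the fetal and 9.60, 7.33 and 7.04 FPKM in the neonatal group. The groups did not overlap, although Fetal3 was far below the other fetal lungs (log2(FC) 0.69, adjusted p = 0.25). PSAP, the precursor of the saposins that assist in sphingolipid breakdown, had 147, 94.0 and 120 FPKM and then 135, 160 and 161 FPKM. Fetal1 exceeded Neonatal1, and the interval of its log2(FC) ran from -0.20 to 0.91.

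The 3 membrane proteins did not pass, and the paired proteins LAMP1 and LAMP2 had different values. LAMP1 and LAMP2 are the main glycoproteins lining the lysosomal membrane. LAMP1 stood at 77.2, 55.9 and 70.2 FPKM in the fetal and 87.6, 137 and 134 FPKM in the neonatal lungs, without overlap (log2(FC) 0.79, adjusted p = 0.108). Without Neonatal1, the lowest of its neonatal values, its log2(FC) was 1.00 and passed (adjusted p = 0.0485). LAMP2 was measured at 70.5, 61.7 and 73.1 FPKM and then at 60.6, 52.8 and 74.1 FPKM, with an interval from -0.61 to 0.33. Within a library, where scaling cancels, the ratio of LAMP1 to LAMP2 was 1.09, 0.906 and 0.961 in the fetal lungs and 1.45, 2.60 and 1.80 in the neonatal lungs, a ratio that was chosen after the values had been seen. MCOLN1, the calcium channel of the lysosomal membrane, was at 5.14 ± 1.40 and 5.73 ± 2.00 FPKM (SD, n = 3 each).

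TFEB, TFE3 and MITF are related transcription factors that activate genes of lysosomes and autophagy, and they are regulated largely by their entry into the nucleus, which RNA levels do not show. TFE3 was the most abundant and rose from 12.9, 11.0 and 11.9 FPKM to 18.9, 24.2 and 26.9 FPKM. All neonatal lungs exceeded all fetal lungs (log2(FC) 0.90, standard error 0.19, adjusted p = 0.0349). Without Fetal1, Fetal2, Fetal3, Neonatal2 or Neonatal3 its adjusted p was between 0.0946 and 0.140. MITF had 3.35, 3.95 and 2.93 FPKM and then 2.32, 2.53 and 3.41 FPKM, with overlap and an interval from -0.72 to 0.24. TFEB was low and varied most between the neonatal lungs, at 0.891, 2.9997 and 1.77 FPKM, against 1.68, 1.51 and 2.30 FPKM in the fetal lungs.

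**Figure D3:**
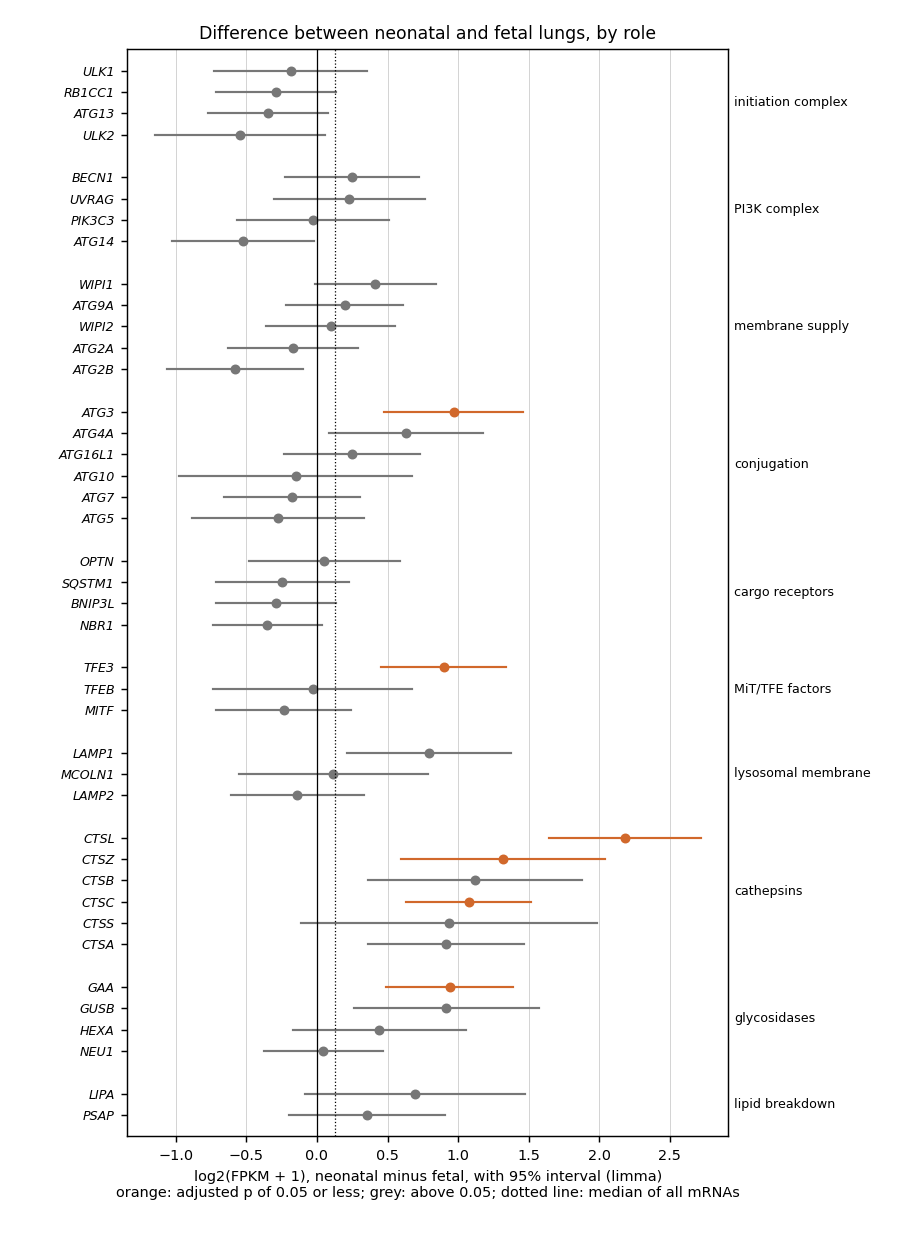
Difference in log2(FPKM + 1) between neonatal and fetal lungs for 41 of the 45 genes (points) with 95% intervals from limma (lines), by role, in orange where the adjusted p was 0.05 or less. All 12 enzymes lie above 0, while the autophagy genes lie on both sides of 0 and, apart from ATG3, are grey; the dotted line marks the median of all mRNAs at 0.13.

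Autophagy begins with the ULK kinase complex. All 4 measured subunits had a lower neonatal mean, with log2(FC) values from -0.55 to -0.19, and none passed the threshold. ULK2, a kinase of the complex, had 15.2, 16.2 and 23.0 FPKM in the fetal and 16.3, 9.18 and 11.2 FPKM in the neonatal lungs, where Neonatal1 stood among the fetal values (log2(FC) -0.55, adjusted p = 0.243). RB1CC1, the scaffold subunit and the most abundant of the complex, was even before birth at 30.4, 30.7 and 30.0 FPKM and then stood at 29.4, 24.3 and 20.9 FPKM. All its neonatal values were below the fetal ones, which held for 9.64% of all mRNAs, and the same was true of the adaptor subunit ATG13. ULK1, the second kinase, was at 6.27, 6.49 and 6.79 FPKM and then at 7.52, 5.84 and 3.93 FPKM, with an interval from -0.73 to 0.36.

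The lipid kinase complex, which makes the phosphoinositide that marks the growing membrane, had 2 higher and 2 lower means. BECN1, its regulatory subunit, gave 14.6, 11.6 and 13.8 FPKM and then 12.6, 17.3 and 18.6 FPKM (log2(FC) 0.25). The catalytic subunit PIK3C3 had a log2(FC) of -0.03 with an interval from -0.57 to 0.51. ATG14, which directs the complex to autophagosome formation, had 5.42, 6.27 and 8.33 FPKM in the fetal and 3.53, 4.48 and 4.91 FPKM in the neonatal lungs. The ATG14 groups were separate, with the neonatal lungs below, but its log2(FC) of -0.52 did not pass (adjusted p = 0.192). UVRAG, which directs the complex to endosomes, stood at 5.29 ± 1.35 and 6.29 ± 0.982 FPKM (SD, n = 3 each).

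The proteins that supply lipid and bind phosphoinositide at the growing membrane also pointed both ways. ATG2B, a lipid transfer protein, was measured at 4.02, 5.62 and 4.16 FPKM before and at 2.87, 2.23 and 3.07 FPKM after birth, without overlap (log2(FC) -0.58, adjusted p = 0.140). Its paralog ATG2A had overlapping groups and a log2(FC) of -0.17. WIPI1, a phosphoinositide-binding protein, stood at 7.78, 6.52 and 6.13 FPKM and then at 8.62, 8.75 and 10.8 FPKM, without overlap in the opposite direction (log2(FC) 0.41, adjusted p = 0.221). Its relative WIPI2, the most abundant of these genes, had 11.3, 9.35 and 11.0 FPKM and then 9.19, 13.5 and 11.6 FPKM with overlap, and the membrane-embedded ATG9A was at 6.999 ± 1.04 and 8.11 ± 0.246 FPKM (SD, n = 3 each).

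The conjugation system attaches ubiquitin-like proteins to lipid, and it held the 1 machinery gene past the threshold. ATG3, the E2-like enzyme that makes this bond, rose from 21.2, 17.6 and 23.6 FPKM to 33.5, 49.2 and 43.0 FPKM, with separate groups. The log2(FC) was 0.97, with a standard error of 0.21 and an adjusted p of 0.0377. Without Fetal1, Fetal2, Fetal3, Neonatal2 or Neonatal3 its adjusted p lay between 0.0825 and 0.146. ATG4A, a protease that processes the ubiquitin-like proteins, was the nearest to it, at 3.54, 2.79 and 5.03 FPKM and then 5.23, 6.42 and 7.32 FPKM (log2(FC) 0.63, adjusted p = 0.158). The E1-like ATG7, with 9.47 ± 0.786 and 8.38 ± 2.03 FPKM, and ATG5, with 4.92 ± 0.329 and 4.06 ± 1.72 FPKM (SD, n = 3 each), had overlapping groups. ATG5, which had the lowest log2(FC) of the system at -0.28, gave 4.99, 4.56 and 5.21 FPKM and then 3.41, 2.75 and 6.02 FPKM, with Neonatal3 above all fetal lungs. ATG10 and ATG16L1 had overlapping groups too, with log2(FC) values of -0.15 and 0.25.

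Cargo receptors link ubiquitinated material or mitochondria to the growing membrane. SQSTM1, also known as p62, stood at 62.0, 50.1 and 55.1 FPKM in the fetal and 39.4, 46.4 and 55.8 FPKM in the neonatal lungs (log2(FC) -0.25, adjusted p = 0.491). NBR1, a receptor related to SQSTM1, had 20.7, 21.3 and 18.3 FPKM and then 17.1, 14.7 and 14.8 FPKM, with all neonatal values below (log2(FC) -0.35, adjusted p = 0.244). BNIP3L, a mitophagy receptor also needed for clearing mitochondria from maturing red cells, was at 23.7, 20.2 and 19.9 FPKM and then at 14.9, 16.9 and 19.9 FPKM, where the lowest fetal and the highest neonatal values were practically equal. The erythroid gene HBB had between 1201 and 2612 FPKM in the fetal and between 866 and 1422 FPKM in the neonatal lungs, and its part in the values of BNIP3L was not tested. OPTN, the optineurin receptor, stood at 25.2, 17.2 and 19.2 FPKM and then 16.3, 23.6 and 24.2 FPKM, with a log2(FC) of 0.05. After quantile normalization SQSTM1 passed as lower, with a log2(FC) of -0.58 (adjusted p = 0.0404).

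In every one of the 6 genes past the threshold, Neonatal1 was the neonatal lung closest to the fetal mean. Per library, the median deviation of the 12 enzymes from the fetal mean was 0.17, -0.27 and 0.05 (log2) in the fetal lungs 1 to 3 and 0.85, 0.86 and 1.01 in the neonatal lungs 1 to 3. For the 27 machinery genes these medians were 0.02, -0.09 and 0.06 before birth and -0.24, -0.30 and 0.08 after it. The enzyme medians were thus separate between the groups, and the machinery medians were not, since Neonatal3 lay above the fetal lungs.

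Other lists, written from textbook roles with earlier results of these data known, were set beside these values. They held none of the 45 genes, and 3 of them are in the plot of list medians per library. Among 26 measured other autophagy genes none passed the threshold, 14 had a higher and 12 a lower mean, and the median log2(FC) was 0.07. Under an unadjusted p of 0.05 in limma there were 5 of these. The 20 measured regulators of mTORC1 and AMPK, the nutrient and energy sensors that control ULK1 and TFEB, likewise had no gene past the threshold, with a median of 0.08 and 4 genes under an unadjusted p of 0.05. Of 27 other lysosomal hydrolases (the activator protein GM2A listed among them), 4 rose and none fell past the threshold. A higher mean was found for 22 of the 27, and the median was 0.45. An unadjusted p under 0.05 in limma held for 11 of the 27 (10 higher and 1 lower). Over all mRNAs, 6.87% were past the threshold. The share of all mRNAs with an unadjusted p under 0.05 was 24.2% (17.6% higher and 6.6% lower).

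NAAA, an amidase of lipid signalling molecules, rose most of this list of hydrolases, from 4.24, 3.44 and 3.36 FPKM to 17.1, 22.4 and 30.4 FPKM (log2(FC) 2.35, standard error 0.24, adjusted p = 0.00373). GM2A, the activator protein for ganglioside breakdown, rose from 15.6, 13.3 and 13.4 FPKM to 27.9, 45.7 and 74.8 FPKM (log2(FC) 1.63, adjusted p = 0.0329). LGMN, the asparaginyl protease that processes cathepsins, went from 37.6, 18.1 and 25.5 FPKM to 54.5, 68.8 and 66.0 FPKM (log2(FC) 1.24, adjusted p = 0.0408). In all of these the groups were separate. DNASE2, the acid DNase, was the fourth, with a log2(FC) of 1.07 (adjusted p = 0.0372). NAAA passed with any library left out, whereas without Fetal2, Fetal3, Neonatal2 or Neonatal3 none of GM2A, LGMN and DNASE2 did, with adjusted p between 0.0715 and 0.149.

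Other membrane and sorting genes of the lysosome passed no more often than all mRNAs, of which 6.87% were past the threshold. An unadjusted p under 0.05 in limma was found for 24.2% of all mRNAs. Of 18 other lysosomal membrane proteins, SLC15A3, a peptide and histidine transporter, rose from 3.02, 2.43 and 1.87 FPKM to 5.60, 8.95 and 13.2 FPKM (log2(FC) 1.52, adjusted p = 0.0300). The list median was 0.10, and 4 genes had an unadjusted p under 0.05. With any library other than Neonatal1 left out, the adjusted p of SLC15A3 was between 0.0839 and 0.130. None of 14 genes that sort hydrolases to lysosomes passed, with a median of 0.15 and 4 genes under an unadjusted p of 0.05. Neither of the 2 measured genes listed as cathepsin inhibitors passed, of which CSTB had 138 ± 42.6 and 99.3 ± 33.9 FPKM and SERPINB1 9.36 ± 2.64 and 18.9 ± 2.96 FPKM (SD, n = 3 each). SERPINB1 had separate groups and an unadjusted p under 0.05 in limma.

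**Figure D4:**
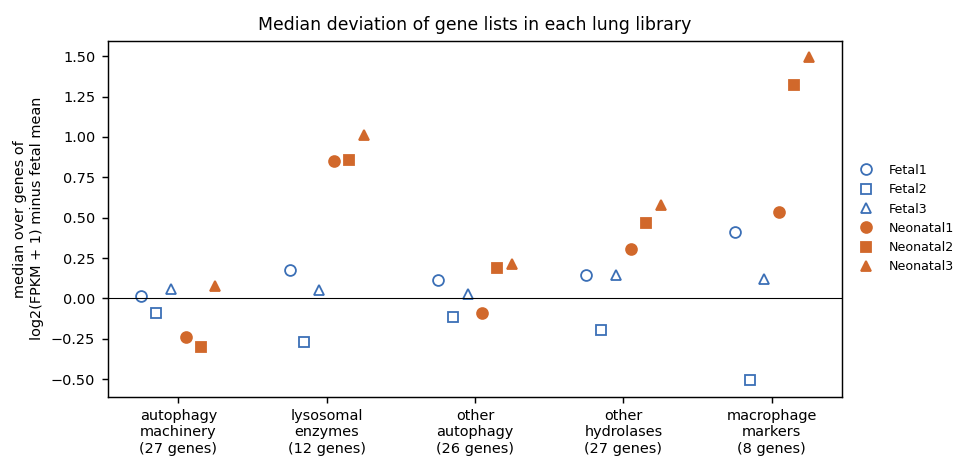
Median over the genes of a list of log2(FPKM + 1) minus the fetal mean of each gene, for each of the 6 lungs, in 5 lists. The neonatal lungs stand between 0.85 and 1.01 for the 12 lysosomal enzymes and between -0.30 and 0.08 for the 27 machinery genes, while the macrophage markers run from 0.54 to 1.50 in the neonatal and from -0.51 to 0.41 in the fetal lungs.

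Lysosomal enzymes are abundant in macrophages, and macrophage markers were therefore examined. The markers named here were picked after their values had been seen. All 8 measured markers had a higher neonatal mean, with a median log2(FC) of 1.12. The groups overlapped in 4 of the 8, and 6 had an unadjusted p under 0.05 in limma, all higher. Only 1 of the 8, the transcription factor SPI1, rose past the threshold, though not with any library other than Neonatal1 left out (adjusted p between 0.0814 and 0.137). Over all mRNAs, the neonatal lungs lay above without overlap in 20.9%, and 5.41% rose past the threshold. A higher value with an unadjusted p under 0.05 was found for 17.6% of all mRNAs. The sum of the 8 markers ranged from 335 to 748 FPKM in the fetal and from 634 to 1501 FPKM in the neonatal lungs, against 319 to 498 FPKM and 576 to 780 FPKM for the sum of the 12 enzymes. None of the 8 measured markers was at 0 in any library. The list named 12, of which CD163, C1QB, C1QC and AIF1 had no matched identifier. CSF1R, the growth factor receptor of macrophages, stood at 3.96 ± 0.962 and 4.26 ± 1.60 FPKM (SD, n = 3 each), while the scavenger receptor MARCO gave 300, 98.3 and 161 FPKM and then 227, 469 and 594 FPKM with overlap. Fetal2 had the lowest enzyme and marker sums of the fetal lungs, and Neonatal1 the lowest of the neonatal lungs. This order was not particular to these lists. Fetal2 and Neonatal1 were also lowest in their groups for the sum of the other autophagy genes (493 and 527 FPKM). The same held for the sum of all mRNAs (339491 and 491548 FPKM). The part of macrophages in the values of the enzymes was not tested, and in tissue RNA a change in the number of cells of a type and a change of RNA per cell cannot be told apart.

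Markers of other cells were compared in the same way. Measured were 3 of 7 listed neutrophil, 7 of 8 alveolar type II, 4 of 7 alveolar type I and 3 of 6 endothelial markers. Of mesenchymal, erythroid and lymphocyte markers, 4 of 6, 5 of 7 and 4 of 6 were measured. The others had no matched identifier. The neutrophil gene S100A8 rose from between 25.7 and 37.7 FPKM to between 185 and 280 FPKM (log2(FC) 2.81, adjusted p = 0.00254). Of the 3 neutrophil markers, whose sum ran from 28.8 to 40.3 FPKM and from 188 to 287 FPKM, ELANE was at 0 in the neonatal lungs. Their median log2(FC) was 1.23, and 2 of the 3 were higher with an unadjusted p under 0.05 in limma. None of 7 alveolar type II markers passed the threshold or had an unadjusted p under 0.05 in limma, with a median of 0.27 and sums from 4509 to 5122 FPKM and from 5811 to 10684 FPKM. ACTA2, a smooth muscle gene, was the 1 mesenchymal marker of 4 to pass (log2(FC) 1.74, adjusted p = 0.0138), and without Fetal1, Fetal2, Neonatal2 or Neonatal3 its adjusted p was between 0.0591 and 0.0682. All 4 mesenchymal markers had a higher neonatal mean, with a median log2(FC) of 0.62. The neonatal lungs lay above without overlap in 3 of them, and 2 had an unadjusted p under 0.05 in limma. No alveolar type I, endothelial, erythroid or lymphocyte marker passed, with list medians of 0.21, -0.40, -0.28 and -0.29 and with 0, 1, 1 and 2 genes under an unadjusted p of 0.05 in limma. Of all mRNAs, 6.87% passed and 24.2% had an unadjusted p under 0.05. With a different test, run on reads, the paper reported the erythroid gene HBB as significantly higher in fetal lungs. The part of these cells in the lysosomal values was not tested.

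With a term for the 3 libraries that had the most lncRNAs listed at 0, 2 of the 12 enzymes stayed past the threshold, CTSL with an adjusted p of 0.0154 and CTSC with 0.0467. CTSZ, GAA, ATG3 and TFE3 then stood at 0.0823, 0.0636, 0.0614 and 0.0725. The median log2(FC) under this fit was 0.84 over the enzymes and -0.20 over the machinery.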

How the data were processed

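The authors deposited FPKM values of 14579 mRNAs and of assembled lncRNAs, which Cufflinks 2.2.1 computed from quality-filtered, strand-specific Ribo-Zero reads mapped to Sscrofa10.2 with TopHat 2.1.0. Each listed mRNA exceeded an FPKM of 0.5 in 1 sample or more. FPKM was used as deposited, without a further filter, and the lncRNA table served to count transcripts listed at 0. Value columns were matched to samples by name. Identifiers were matched to symbols in an Ensembl name table, which covered 9478 mRNAs, and the paper's gene table added 0 members. No coordinates of the authors' build were used here, and no sequence is shown. Of the machinery, 4 genes (1 role group) enter the counts and medians but are not reported here; they include the lowest log2(FC) of the 45, and none passed the threshold.

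Groups were compared in limma 3.58.1 (R 4.3.3) on log2(FPKM + 1) with a mean-variance trend. The Benjamini-Hochberg adjustment ran over the whole table. The fit was tested on simulated data. Summaries used Python 3.11.15, pandas 2.3.3 and scipy 1.17.1. Members and lists were chosen with earlier results of these data known. Each of the members past the threshold is given in all samples. So are the most abundant gene and the extremes of each role, apart from the 4 genes not reported. Of other lists, at most 3 genes past the threshold were to be named in each direction. CTSV, DNASE2 and the markers were named after their values were seen, and not all of these are given per sample. Alternatives were other pseudocounts (0.5 and 0.1), a filter at FPKM 1 in 3 samples, 2 scalings, no variance trend, a replicate block, a term for 3 libraries, and each library left out.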

Additional observations from a re-analysis of the deposited data

How the results depend on the processing

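The numbers of enzymes and machinery genes past the threshold, 4 and 1, held with both other pseudocounts, the stricter filter and median-of-ratios scaling. Quantile normalization left the enzymes at 4 and raised the machinery to 3, of which ATG3 was higher and 2 were lower, SQSTM1 and 1 of the genes not reported here, while the fit without a variance trend gave 3 enzymes and 1 machinery gene. With a term for the 3 libraries with the most lncRNAs at 0 the counts were 2 enzymes, 0 machinery genes and 587 of all mRNAs, against 1001. With the replicate number as a block they were 1, 0 and 401, and the fit spends degrees of freedom on the block. The numbers did not pair the piglets, since deviations of same-numbered samples correlated at -0.04, -0.004 and 0.0005. With 1 library left out, between 1 and 3 enzymes, between 0 and 1 machinery gene and between 196 and 944 mRNAs passed. CTSL passed in all 14 alternatives with the same gene list. The median log2(FC) stayed between 0.71 and 1.03 for the enzymes and between -0.34 and -0.07 for the machinery over these alternatives. Of the 45 genes, 10 changed the sign of their log2(FC) in at least 1 alternative, none of them past the threshold. The share of calls that were higher was 78.8% as deposited, 66.0% with median-of-ratios scaling and 57.9% after quantile normalization. CTSV in place of CTSL was added after the data had been seen and left 3 enzymes past the threshold.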
